A study of Mus musculus with 4 samples.

Results

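DNA methylation was compared between brains of newborn mice whose mothers had or had not received titanium dioxide nanoparticles, and 1807 array regions that read lower in both exposed pools than in both control pools are described here. They were selected on the measured values themselves. On each array the value of a region was the log2 of its Cy5 signal (methylated DNA) over its Cy3 signal (input DNA), centred on the median of the autosomal regions. A region was a member when the higher of its 2 exposed values lay 0.585 or more (1.5-fold on the linear scale) under the lower of its 2 control values. This distance is called the gap. Eligible regions were autosomal, with Cy3 well above background on all 4 arrays and Cy5 well above background on both control arrays, a flag set by the scanner software. Of 88737 regions on the array, 85850 were autosomal and 39291 were eligible, so the members made up 4.60% of the eligible regions. Since the same values chose the members, the lower level of the exposed pools is a description and was not tested.

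Pregnant C57BL/6J mice (C57BL/6 in the strain label) received 100 ug of nanoparticles per mouse in suspension through the trachea (TiO2-H group) or vehicle in the same way (Sham group). The sample names put the instillation on gestational day 14 and the treatment protocol on gestational day 10.5, and this was left as it stands. Titles, source names and treatment labels name titanium dioxide for the TiO2-H samples, while their free-text description speaks of vehicle and, for all 4 samples, of males. Groups follow the titles. Whole brains were taken from offspring at 1 day of age, 2 from each dam, and DNA was pooled by group and sex from 5 Sham dams and 6 TiO2-H dams. The 4 pools were thus males and females of either group, and each was hybridised on 1 array of a mouse CpG island design placed on the mm9 genome build, with no dye swap. A pool averages over its animals and over all cell types of the brain, so a change in the share of a cell type cannot be told apart from a change of methylation within cells.

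In MeDIP, an antibody against 5-methylcytosine pulls down DNA fragments that carry methylated CpG sites, and the pulled-down DNA is set against the input of the same sample. CpG islands are stretches rich in CpG that often cover gene starts and are mostly unmethylated in somatic tissues, apart from imprinted loci, germline genes and some islands within genes. A low MeDIP value is therefore the usual state of an island, and a region must carry some signal in the Sham pools before a lower value in the TiO2-H pools can be seen.

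Several features of the arrays bear on every value below. Of all regions, 51.2% (Sham male) and 59.4% (Sham female) had Cy5 well above background in the control pools, against 25.3% (TiO2-H male) and 33.0% (TiO2-H female) in the exposed pools, whereas Cy3 passed at 93.8% to 98.0%. Both Sham arrays lay at the first position of their slide and both TiO2-H arrays at the second, so exposure and slide position cannot be told apart. The male arrays shared slide 1 and the female arrays slide 2. The median Cy3 log2 signal of X-linked regions relative to autosomal ones was -0.75 (male) and 0.03 (female) in the Sham pools, and 0.03 (labelled male) and -0.74 (labelled female) in the TiO2-H pools. By this measure the exposed arrays did not match the sex they are labelled with. The rule takes the higher of the 2 TiO2-H values and does not depend on which is male, and the labels are kept below as names of arrays. Where 4 values follow each other, they stand in the order Sham male, Sham female, then the male and the female TiO2-H pool.

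The members stand for short pieces of DNA of 45 to 60 bp at or near CpG islands, and 4 promoters at such islands are shown to give the sequence context in which CpG methylation was read. They belong to the genes first in the order of naming whose start lies inside a run of regions with 3 members and which have 1 promoter in the table. A run is a series of autosomal regions with gaps of at most 1000 bp. Each sequence runs 5′ to 3′ from 250 bases before to 50 bases after the gene start, from RefSeq on build GRCm38.p6, and CG in capitals marks each CpG. The array positions are on mm9, which is another build, so no region was laid onto these letters. Nectin2 (chr7:19749524-19749823, minus strand) is shown because 1 member lay in this window. Rgl2 (chr17:33929644-33929943, plus strand) is shown because its members flank the window on both sides. Trip12 (chr1:84839255-84839554, minus strand) and Fbxo36 (chr1:84839591-84839890, plus strand) are shown because they start head to head in 1 island whose members lie outside both windows.
Nectin2: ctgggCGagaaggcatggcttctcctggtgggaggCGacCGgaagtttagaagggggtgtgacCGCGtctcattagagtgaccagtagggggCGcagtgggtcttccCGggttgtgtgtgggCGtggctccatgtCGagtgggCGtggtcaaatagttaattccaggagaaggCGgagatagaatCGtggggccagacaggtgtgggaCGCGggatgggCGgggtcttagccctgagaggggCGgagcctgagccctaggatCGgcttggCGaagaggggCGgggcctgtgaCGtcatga
Rgl2: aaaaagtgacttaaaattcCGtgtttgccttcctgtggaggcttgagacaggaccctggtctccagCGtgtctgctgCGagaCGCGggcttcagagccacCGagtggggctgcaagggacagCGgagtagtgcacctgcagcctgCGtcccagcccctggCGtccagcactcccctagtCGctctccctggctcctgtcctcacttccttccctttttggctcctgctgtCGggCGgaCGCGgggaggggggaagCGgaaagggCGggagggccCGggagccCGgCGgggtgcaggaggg
Trip12: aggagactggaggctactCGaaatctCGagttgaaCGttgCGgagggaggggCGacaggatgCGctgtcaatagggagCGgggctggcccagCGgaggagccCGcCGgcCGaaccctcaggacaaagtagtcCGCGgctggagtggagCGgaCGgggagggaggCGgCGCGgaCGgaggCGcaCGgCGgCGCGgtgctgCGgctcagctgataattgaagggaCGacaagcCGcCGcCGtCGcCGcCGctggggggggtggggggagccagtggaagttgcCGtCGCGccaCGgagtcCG
Fbxo36: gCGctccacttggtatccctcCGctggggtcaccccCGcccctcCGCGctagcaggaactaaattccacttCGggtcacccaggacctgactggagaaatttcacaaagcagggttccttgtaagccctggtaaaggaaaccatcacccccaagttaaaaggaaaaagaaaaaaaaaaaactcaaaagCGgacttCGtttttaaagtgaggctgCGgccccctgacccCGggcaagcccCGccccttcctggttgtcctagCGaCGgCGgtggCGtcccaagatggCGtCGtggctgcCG
The letters CG, searched on 1 strand since they read the same on both, occurred 20 times in the Nectin2 window, 19 times in Rgl2, 37 times in Trip12 and 18 times in Fbxo36. The median over the 32851 promoters of the table was 7, and 94.6% of them held at least 1. As many as in Trip12 were held by 5.58% of promoters and as many as in Fbxo36 by 29.7%.

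The members read near the middle of the arrays in the Sham pools and near the bottom in the TiO2-H pools. Their median value in the Sham pools was -0.23 for males (quartiles -0.77 and 0.51) and 0.12 for females (quartiles -0.26 and 0.58). In the TiO2-H pools it was -1.66 for the one labelled male (quartiles -2.27 and -1.12) and -1.50 for the one labelled female (quartiles -2.10 and -0.86). In ranks among all autosomal regions of an array, the median member stood at percentile 44.3 and 55.2 in the Sham pools and at percentile 9.55 and 13.9 in the TiO2-H pools. All eligible regions had medians of 0.89, 0.55, 0.38 and 0.88 in the same order of arrays, so the members lay below the other eligible regions in the Sham pools too.

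**Figure D1:**
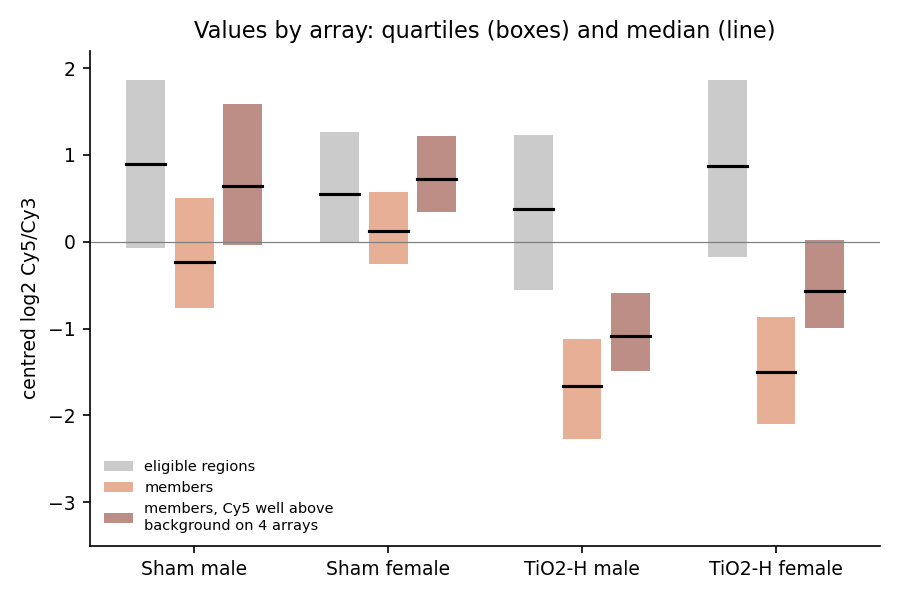
Centred log2 Cy5/Cy3 on each of the 4 arrays (1 pool each) for the 39291 eligible regions, the 1807 members and the 200 members with Cy5 well above background on all 4 arrays. Boxes span the quartiles and lines mark the medians over regions, and the members sit at -0.23 and 0.12 in the Sham pools against -1.66 and -1.50 in the TiO2-H pools, a direction set by their selection.

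The gap had a median of 0.91 and a largest value of 3.97 on the log2 scale, 753 members had a gap of 1 or more and 93 of 2 or more. Cy5 was well above background on all 4 arrays at 65 of the 753 and at 6 of the 93. At the member with the largest gap it was so on neither TiO2-H array. The spread between pools of the same exposure gives a scale for these sizes. The Sham arrays differed from each other by a median of 0.49 at the members and the TiO2-H arrays by 0.38. At 77.0% of the members Cy5 was not well above background on both TiO2-H arrays, so the 0.38 is mostly between such values. The gap exceeded both differences at 1161 members (64.3%), against 1881 (4.79%) of all eligible regions. Members were chosen for a large gap, so this share is a description. Over all eligible regions the arrays of an exposure differed by 0.57 and 0.60, and the median of TiO2-H minus Sham was -0.13. Within slide 1 the median of TiO2-H minus Sham was -1.38 over the members and -0.58 over all eligible regions, and within slide 2 it was -1.50 and 0.35. At the threshold, the members with the smallest gaps were chr8:98330678-98330722 and chr14:70167742-70167786, both at 0.59. At chr14:70167742-70167786 the values were 0.38 and 0.50 in the Sham pools and -0.43 and -0.20 in the TiO2-H pools. The nearest regions outside, chr19:41163332-41163378 and chr9:108480765-108480809, had gaps of 0.58, and at the first of them the values were 0.62, 0.76, -1.03 and 0.03 in the same order.

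**Figure D2:**
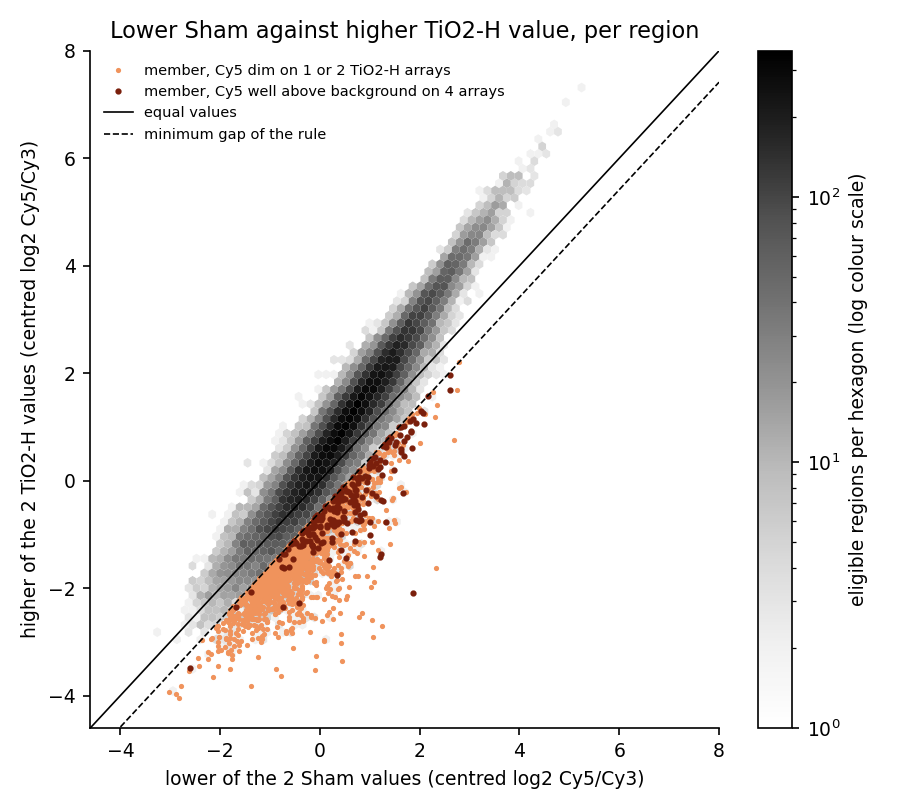
Each eligible region by the lower of its 2 Sham values (x axis) and the higher of its 2 TiO2-H values (y axis), both in centred log2 Cy5/Cy3, with grey hexagons counting regions on a log colour scale. Members lie below the dashed line by construction, and the 1607 with dim Cy5 on a TiO2-H array are drawn apart from the 200 with Cy5 well above background on all 4 arrays.

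The opposite pattern was rarer. With the same eligible regions and the same gap, 137 regions (0.349%) read higher in both TiO2-H pools than in both Sham pools. The filter asks for Cy5 well above background in the Sham pools and not in the TiO2-H pools, so the eligible regions may lie at background in the TiO2-H pools, while regions at background in a Sham pool did not enter. Among the 20591 eligible regions with Cy5 well above background on all 4 arrays, 200 (0.971%) were members and 123 (0.597%) passed the same gap upwards. This filter asks for the same flag in both exposures but does not act evenly. The lowest processed Cy5 that passed was 837 and 574 on the male and female TiO2-H arrays, against 430 and 507 on the Sham arrays. Fewer regions passed on the TiO2-H arrays, so these shares depend on the filter too.

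The difference lay mainly in the Cy5 channel. Before centring, TiO2-H minus Sham of the log2 processed Cy5 signal had a median of -2.18 over the members, and that of the Cy3 signal a median of -0.44. Over all eligible regions these medians were -0.63 and -0.30. In background-subtracted intensity units, the median member had a Cy5 signal of 12.6 and 18.4 on the male and female Sham arrays and of 1.79 and 2.58 on the male and female TiO2-H arrays. Its Cy3 signal was 204, 235, 229 and 251 in the same order. Over all eligible regions the median Cy5 signal was 17.1 and 14.4 on the male and female Sham arrays and 5.38 and 8.02 on the TiO2-H arrays. In these units the input of the median member was of similar size in the pools, though its processed Cy3 differed by -0.44. The MeDIP signal was low in both TiO2-H pools, where Cy5 was also lower over all eligible regions.

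Most members had dim Cy5 in the TiO2-H pools. Cy5 was not well above background at 1605 members (88.8%) on the TiO2-H male array and at 1393 (77.1%) on the TiO2-H female array. Of the members, 1391 (77.0%) were dim on both TiO2-H arrays, 1607 (88.9%) on at least 1 and 200 (11.1%) on neither. Among the eligible regions that were not members, 45.6% were dim on at least 1 TiO2-H array and 26.0% on both. Read the other way, 12.5% of the 11126 eligible regions dim on both TiO2-H arrays were members, 3% of the 7135 dim on the TiO2-H male array alone, 0.456% of the 439 dim on the TiO2-H female array alone and 0.971% of those dim on neither. The scanner software also marks whether a signal differed from its background at all. This was not so for 391 members on the TiO2-H male array, for 170 on the TiO2-H female array and for 106 (5.87%) on both, against 2 of the 37484 eligible regions that were not members. No member carried an outlier flag in either channel or a saturated spot.

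Where Cy5 was dim, the TiO2-H level is a bound and not a measurement. To give that bound, Cy5 not well above background was raised to the lowest processed signal among well-above-background autosomal regions of its array. Dim Cy5 that already lay above this floor was left as it was. An example is chr4:46502059-46502103, dim on the TiO2-H male array, where the fold was 1.34 with and without the step. The bound therefore depends on the floor chosen and is not a strict minimum. With this step the Sham mean remained above the TiO2-H mean at 1210 members. At 813 members (45.0%) it remained at least 1.5-fold above, and the median bound over all members was 1.33-fold. The gap itself, taken from the lower Sham to the higher raised TiO2-H value, stayed at 1.5-fold or more at 536 members. At 597 members the Sham mean was not above the raised TiO2-H mean and no fold can be stated, and each of these was dim on at least 1 TiO2-H array.

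The members were brighter in input than the other eligible regions. When eligible regions were ordered into 10 equal bins by mean Cy3 over the 4 arrays, 1.65% of the dimmest and 1.20% of the next bin were members, then 2.47%, 2.88%, 3.13%, 4.40%, 5.60%, 6.08% and 7.81%, and 10.8% of the brightest. Ordered by mean Cy5 over the Sham arrays, the share was 5.11% in the dimmest bin, between 4.28% and 4.96% in the middle ones and 3.18% in the brightest. Among regions with Cy5 well above background on all 4 arrays, 139 of the 200 members fell in the brightest bin of Cy3, which was 6.75% of that bin, and 0 of 2060 in the dimmest. By Sham Cy5 the share among these regions was 0% in the 3 dimmest bins and rose to 2.28% in the brightest. Cy3 enters the ratio as its denominator, and both orders use signals that the rule also used, so the shares are a description.

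**Figure D3:**
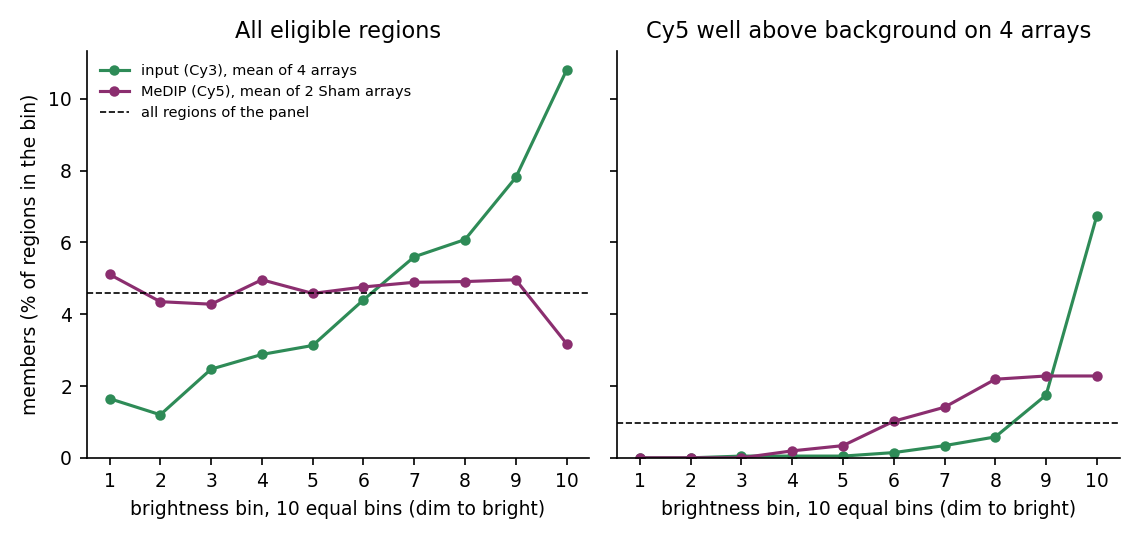
Share of regions that are members (y axis, percent) in 10 equal bins of regions from dim to bright (x axis), by input Cy3 averaged over 4 arrays and by MeDIP Cy5 averaged over the 2 Sham arrays, with dashed lines at 4.60% (left, all eligible regions) and 0.971% (right, Cy5 well above background on 4 arrays). The share climbs from 1.65% to 10.8% with Cy3 on the left and is 3.18% to 5.11% by Sham Cy5, and on the right it climbs with both, from 0% to 6.75% by Cy3 and to 2.28% by Sham Cy5.

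Members were spread over all 19 autosomes. The share of eligible regions that were members ran from 3.90% on chromosome 6 to 5.48% on chromosome 8, around the 4.60% of the whole. On the face of the array it ran from 3.62% to 5.99% over sixths of the rows and from 3.93% to 5.50% over sixths of the columns. Runs of 1 or 2 regions had 2.83%, runs of 16 to 40 regions 4.00%, and the sizes between 4.64% to 4.80%. In runs of 3 or more, the first or last region was a member in 6.13% of 8249 cases and an inner region in 4.23% of 30159. The share was thus higher at the edges, while most members were inner regions.

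Where a gene start could be placed in a run from the study's probe annotation, 434 of 11828 eligible regions were members (3.67%). The share was 3.33% from 250 bp upstream to 50 bp downstream of the start, 4.86% from 1000 to 250 bp upstream and 5.05% further upstream. It was 3.76% from 50 to 1000 bp downstream and 3.13% beyond. The annotation comes from lists that the study drew from these same arrays, in which 3913 of the 14178 runs could be named. Runs with a symbol held members at 3.71% of eligible regions and runs without at 5.17%.

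Most members stood alone. They fell into 1555 of the 12895 runs with an eligible region (12.1%), of which 1335 held 1 member, 192 held 2, 24 held 3 and 4 held 4. Another member lay within 1000 bp of 441 members (24.4%), while a member lay within 1000 bp of 11.2% of the eligible regions that were not members. An eligible neighbour of any kind was present for 93.1% of the members, so for most of them the neighbours were eligible and did not pass the gap. Such neighbours could be dim in the TiO2-H pools, as 45.6% of all eligible non-members were on at least 1 TiO2-H array.

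The neighbours nonetheless leaned the same way, and the more so the closer they lay. Of eligible regions up to 100 bp from a member (midpoint to midpoint), 18.7% of 685 were members themselves. The share was 14.4% from 100 to 200 bp, 7.68% from 200 to 300 bp, 7.01% from 300 to 500 bp and 5.71% from 500 to 1000 bp, against 4.60% of all eligible regions. Neighbours that were not members had a median TiO2-H minus Sham of -0.42 within 100 bp, with 82.8% of 557 below 0. The median was -0.25 from 100 to 200 bp, -0.20 from 200 to 300 bp, -0.14 from 300 to 500 bp and -0.16 from 500 to 1000 bp, against -0.11 over all eligible regions that were not members, 61.6% of which lay below 0. These neighbours share the 4 arrays with the members and MeDIP fragments can span several regions, so they are not replicates.

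**Figure D4:**
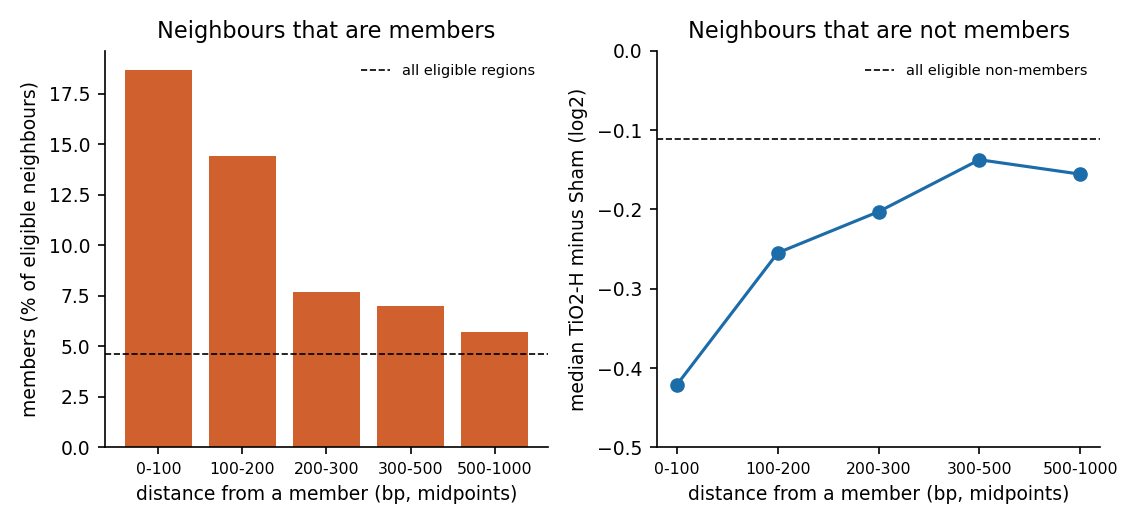
Eligible regions around members by distance (x axis, bp between midpoints): left, the percentage that are members, right, the median TiO2-H minus Sham of those that are not members, in log2. The bars fall from 18.7% within 100 bp to 5.71% at 500 to 1000 bp (dashed line 4.60%), and the line on the right goes from -0.42 to -0.16 (dashed line -0.11).

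The 28 runs with 3 or more members held 88 members, of which 72 (81.8%) were dim on at least 1 TiO2-H array. The other 121 eligible regions of these runs had a median difference of -0.27, and 89 of them (73.6%) lay below 0. The 10 runs with the most members are described next.

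At Loxl2, which encodes a lysyl oxidase-like enzyme that modifies collagen and elastin, 4 of the 5 regions of the run on chromosome 14 were members. At chr14:70008926-70008970 the values were 1.05 and 1.16 in the Sham pools and -2.58 and -2.59 in the TiO2-H pools. Cy5 was dim on both TiO2-H arrays there, and the bound was 5.10-fold. At chr14:70008844-70008888 Cy5 was well above background on all 4 arrays and the values were 0.98, 1.10, -0.05 and 0.24, a 1.93-fold difference of means. At chr14:70008844-70008888 the Sham arrays differed by 0.12 and the TiO2-H arrays by 0.30. At chr14:70008926-70008970 the Sham arrays differed by 0.11, and the dim TiO2-H values give no measured spread. The 1 region of the run that was not a member, chr14:70009101-70009145, read -1.47, -0.40, -1.35 and -2.24, with the TiO2-H male value inside the range of the Sham values.

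At Clstn1, which encodes calsyntenin 1, a cadherin-related membrane protein of neurons, 4 adjacent regions just downstream of the gene start were members. At chr4:148961215-148961259 the values were -0.26, 1.11, -2.77 and -1.51. Cy5 there was dim on the TiO2-H male array alone, while 3 of the 4 members were dim on both TiO2-H arrays. The next region, chr4:148961308-148961352, was not a member at -0.44, 1.17, -1.93 and -0.40, where the TiO2-H female value lay just above the Sham male value. At chr4:148961215-148961259 the Sham arrays differed by 1.37, as the plot of the runs shows, and the 4 members had bounds of 1.24-fold to 4.92-fold.

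On chromosome 6, 4 members fell among 8 eligible regions of a run without a symbol. The value at chr6:88792017-88792061 was 0.80 and 1.05 in the Sham pools and -1.71 and -0.63 in the TiO2-H pools, and at chr6:88792125-88792169 it was 2.72, 2.03, 0.32 and 1.29. Both had Cy5 well above background on all 4 arrays, with means 4.26-fold and 2.97-fold apart. These members lay next to each other. The region before them, chr6:88791877-88791921, had a high MeDIP value in every pool at 5.84, 2.79, 2.74 and 4.40 and did not separate the exposures.

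In a run on chromosome 11 without a symbol, 4 of 14 eligible regions were members. At chr11:69810209-69810253 the values were 2.46, 1.82, -0.21 and 0.90, all well above background, and the means differed 3.47-fold. The region after it, chr11:69810295-69810339, was a member too at 1.27, 1.15, -1.74 and -0.31, with Cy5 dim on the TiO2-H male array. The regions before and after this pair, chr11:69810124-69810168 and chr11:69810400-69810444, read 4.77, 2.97, 3.05 and 4.41, and 3.16, 1.83, 1.69 and 2.94. Neither separated the exposures.

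Nectin2 encodes a cell adhesion molecule of the immunoglobulin superfamily. The member in the promoter window printed above, chr7:20334905-20334949, read -0.12, 0.47, -1.55 and -0.82 with Cy5 well above background on all 4 arrays, a 2.56-fold difference of means. The other members lay inside the gene, and at chr7:20334418-20334462 the values were 3.63, 0.88, -2.71 and 0.21, with the Sham arrays 2.75 apart. Cy5 was dim on the TiO2-H male array at chr7:20334418-20334462, and the bound was 6.42-fold. Between them, chr7:20334701-20334745 read 0.85, 0.77, 0.73 and 1.46 and did not separate the exposures.

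Rgl2 encodes an exchange factor for the small GTPase Ral. Its member chr17:34067414-34067462, downstream of the start, read 2.33, 2.53, -2.83 and -1.63. Cy5 was dim on both TiO2-H arrays and the bound was 11.4-fold, the largest in the 10 runs named. The region before it that read high, chr17:34067192-34067236, read 3.49, 1.22, 1.19 and 2.47, and the Sham and TiO2-H values overlapped.

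The other 4 of these 10 runs had no symbol. Their bounds over members ran from below 1 (no fold) to 5.85-fold. At chr8:87561401-87561445, with Cy5 well above background on all 4 arrays, the values were 0.15, 1.74, -1.58 and -0.83. At chr17:29627256-29627303 they were 2.96, 0.09, -2.99 and -3.35, where the Sham arrays were 2.87 apart. At chr11:92961341-92961387 the Sham arrays were at -1.27 and 1.02 and the TiO2-H arrays at -2.78 and -3.68, and at chr4:46502385-46502429 the 4 values were -1.15, -0.03, -2.76 and -2.99. Cy5 was dim on both TiO2-H arrays at chr17:29627256-29627303, chr11:92961341-92961387 and chr4:46502385-46502429. The bounds there were 5.85-fold, 1.79-fold and 2.99-fold.

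The 200 members with Cy5 well above background on all 4 arrays give measured levels in every pool. Their median values were 0.64, 0.72, -1.09 and -0.56 in the order of arrays given above, and their median gap was 0.84. Of them, 114 (57%) had a gap above both within-exposure differences, against 4.79% of all eligible regions. The 200 were chosen for a large gap, and 47.6% of all eligible regions were dim on at least 1 TiO2-H array. The 2 shares are thus of unlike sets and are a description. The 10 with the largest gaps, at most 1 per run, had gaps of 1.79 to 3.95 on the log2 scale.

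The region chr2:30656577-30656621 had the largest gap of these, at 1.86 and 2.31 in the Sham pools and -2.57 and -2.09 in the TiO2-H pools. The Sham mean was 21.3-fold higher than the TiO2-H mean. TiO2-H minus Sham was -4.41 on the log2 scale, and -2.57 when the arrays were normalized by loess. The other 4 eligible regions of its run differed by -0.69 to 0.02, and none was a member. The difference was thus seen at 1 region of 45 bp and not along the run.

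Near Sec63, which encodes a component of protein translocation into the endoplasmic reticulum, chr10:42482055-42482099 read 2.01, 1.21, -2.27 and -1.42, a 11.0-fold difference of means. Of the 3 other eligible regions in its run 1 was a member too. Near Pou4f2, a transcription factor of retinal ganglion cells and other sensory neurons, chr8:80959381-80959425 read 1.22, 1.46, -1.60 and -1.37. It lay downstream of the gene start, and the other 5 eligible regions of that run, none a member, differed by -0.54 to 0.29. In the Trip12 and Fbxo36 island printed above, chr1:84835228-84835272 read 1.01, 1.02, -1.44 and -0.77, and 2 of the 8 other eligible regions were members. Trip12 encodes a ubiquitin ligase and Fbxo36 an F-box protein.

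The other 6 of the 10 had no symbol. At chr19:7054605-7054649 the values were 1.03, 0.34, -2.34 and -1.76. At chr2:165818945-165818989 they were 2.03, 1.32, -1.70 and -0.76, and at chr8:87396203-87396247 they were 1.18, 1.00, -1.19 and -1.01. The pools of an exposure differed by less than 1 at each of these. At chr3:68931188-68931232 the values were 1.63, 0.53, -2.22 and -1.44, at chr18:86881037-86881081 they were -0.42, 1.11, -2.69 and -2.28, and at chr7:13863737-13863781 they were 0.84, 0.71, -1.33 and -1.13. At chr18:86881037-86881081 the Sham arrays were 1.53 apart, and the gap of 1.86 remained larger.

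Gene lists that fit a newborn brain or DNA methylation were then read for members, each count standing against the 4.60% of all eligible regions. List genes could be found only in runs with a symbol, where the share was 3.71%. The neural transcription factors had 10 members among 257 eligible regions (3.89%), the morphogens and their receptors and inhibitors 5 of 119 (4.20%) and the synaptic and ion channel genes 8 of 133 (6.02%). The shares of the transcription factors and morphogens lie between 3.71% and 4.60%, and that of the synaptic and ion channel genes lies above both, from 8 members. The Hox genes had 4 of 49 (8.16%), the genes of the DNA methylation machinery 3 of 19 (15.8%) and the housekeeping genes 2 of 13 (15.4%), from a few regions each. The imprinted genes had 2 of 94 (2.13%) and the germline promoters, which are methylated in somatic tissue, 0 of 46. The germline promoters had a median Sham level of 1.72 and a median TiO2-H minus Sham of 0.27, and the imprinted genes 1.09 and 0.20, against 0.73 and -0.13 over all eligible regions.

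Among the neural transcription factors, the members included regions at Zic2, Olig2, Nkx6-2, Isl2, Irx2, Pou4f2, Pax2 and Nkx2-1, and 8 of the 10 were dim on both TiO2-H arrays. At Nkx6-2, a homeobox factor of oligodendrocyte and ventral neural tube development, chr7:146767389-146767434 read -1.78, 0.19, -3.14 and -3.40 in the order of arrays given above, and the bound was 1.15-fold.

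All 4 Hox members, at Hoxb4, Hoxa11, Hoxa10 and Hoxd11, were dim on both TiO2-H arrays. The Hox genes set position along the body axis, and those of the posterior body are silent in the forebrain. At Hoxb4, chr11:96180501-96180545 read 1.40, -0.09, -3.52 and -3.78, and the bound was 3.99-fold. At Hoxa10 (chr6:52183467-52183515) the bound was 1.40-fold. At Hoxa11 and Hoxd11 no fold can be given, because the bound fell below 1.

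Bmp4, the bone morphogenetic protein that patterns the dorsal neural tube, had 2 members next to each other. At chr14:47007792-47007836 the values were 3.68, 1.08, -1.88 and -2.89, with a bound of 17.1-fold, and at chr14:47007694-47007740 they were 3.0, 1.41, -1.19 and -1.60, with a bound of 3.98-fold. The Sham arrays differed by 2.60 at the first of these. Ptch1, the receptor of Sonic hedgehog, had 1 member at chr13:63674256-63674300 (0.26, -0.56, -2.05 and -1.59) with a bound of 1.42-fold. Its place relative to the gene start was -7450 bp, that is upstream. Fzd5, a Wnt receptor, and Fgf3, a fibroblast growth factor, had 1 member each, and at the Fgf3 member no fold can be given.

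Of the DNA methylation machinery, the members lay at Gadd45a, Gadd45g and Tet3, which have roles in removing methyl groups from DNA. At Gadd45g, chr13:51942448-51942492 read -0.72, 0.55, -1.63 and -1.78 with Cy5 well above background on all 4 arrays, and the means differed 3.07-fold. At Gadd45a, chr6:66987027-66987071 read 0.22, -0.26, -1.83 and -1.57, with a bound of 2.84-fold. At Tet3, chr6:83318470-83318515 lay far downstream of the start and read 0.92, 0.65, -0.21 and 0.07, near the minimum gap, with a bound of 1.08-fold. The list had 4 of its 16 genes on named runs, so most of it was not read.

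Among the synaptic and ion channel genes, members included regions at Shank1 (2), Slc32a1 (2), Slc17a7, Kcna1 and Drd4. At Slc17a7, the vesicular glutamate transporter VGLUT1, chr7:52431987-52432031 read 0.96, 0.27, -2.64 and -1.19 and was dim on 1 TiO2-H array. It lay 12719 bp downstream of the gene start. At Kcna1, a voltage-gated potassium channel, chr6:126594805-126594849 read 0.48, 0.39, -1.18 and -1.64. Cy5 was dim on both TiO2-H arrays there, and at Shank1, a postsynaptic scaffold protein, and Slc32a1, the vesicular transporter of GABA and glycine, at the members with the larger gap. No fold can be given for these 3 regions, and the one at Slc32a1 lay 3344.5 bp downstream of the gene start.

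The housekeeping gene Gapdh carried 2 members at its start. At chr6:125115461-125115505 the values were -0.25, -0.13, -1.91 and -1.53, and at chr6:125115613-125115657 they were 0.21, 0.47, -0.63 and -0.68. The pools of an exposure differed by 0.05 to 0.38, and Cy5 was dim on 1 TiO2-H array at each. The means differed 2.88-fold and 1.99-fold, and the bounds were 2.85-fold and 1.95-fold. Promoters of active housekeeping genes are as a rule free of methylation, and the median Sham level of the housekeeping list was -0.25.

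At Gnas, an imprinted locus with several promoters, chr2:174153010-174153054 read 1.76, 1.27, -0.27 and 0.65 with Cy5 well above background on all 4 arrays, a 2.50-fold difference of means, and chr2:174156135-174156179 read -1.20, -0.19, -1.96 and -1.88. Cy5 was dim on both TiO2-H arrays at chr2:174156135-174156179, with a bound of 1.29-fold. The study's own loci, which it chose on these samples and which are no independent evidence, had 3 members of 33 eligible regions (9.09%). They lay at Cyp4f39, a cytochrome P450, and Synj2, an inositol phosphatase. At Cyp4f39, chr17:32589667-32589711 read 1.84, 0.97, -1.30 and 0.04 and chr17:32589827-32589872 read -0.56, 0.92, -3.01 and -1.50. Cy5 was dim on the TiO2-H male array at the former, with a bound of 2.53-fold. It was dim on both TiO2-H arrays at the latter, with a bound of 2.35-fold. At Synj2, chr17:5941768-5941812 read -0.68, 0.74, -2.87 and -2.84, with dim Cy5 on both TiO2-H arrays and a bound of 6.62-fold. Each group is 1 pool, so none of these array values has a replicate check on the arrays.

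Which regions were members depended on the scaling of the values. Quantile normalization kept 1534 of the 1807 members (84.9%) and a common spread of the arrays 1524 (84.3%). Loess within arrays kept 442 (24.5%), and normexp background correction with an added offset kept 174 (9.63%) while calling 1895 regions in all. Under all 4 of these scales 98 members passed the gap, 34 of which had Cy5 well above background on all 4 arrays. Of the 200 members with Cy5 well above background on all 4 arrays, quantile normalization kept 180 (90.0%), a common spread 175 (87.5%), loess 37 (18.5%) and normexp 104 (52.0%). The 98 included the regions named above at chr2:30656577-30656621, Sec63, chr19:7054605-7054649, chr2:165818945-165818989, chr3:68931188-68931232 and the Trip12 and Fbxo36 island. Other regions named above lost the gap under at least 1 scale. Under all 4 together, 1 of 4 members passed at Loxl2 and in the chromosome 6 run. So did 1 of 3 at Nectin2, Rgl2 and the runs of chr17:29627256-29627303 and chr8:87561401-87561445. In the runs of chr11:69810209-69810253 and chr11:92961341-92961387, 0 of 4 and 0 of 3 passed. Not among the 34 were chr14:70008844-70008888, chr7:20334905-20334949, chr11:69810209-69810253, chr6:88792125-88792169 and chr8:87561401-87561445. Under loess and normexp alike, 0 of the 4 Clstn1 members, 0 of the 3 members of the run at chr4:46502385-46502429 and 0 of the 2 Gapdh members passed it, as did none of the named members at Gadd45g, Tet3, Synj2, Hoxa10, Hoxa11, Hoxd11, Nkx6-2, Fgf3, Kcna1, Shank1 and Slc32a1, nor chr2:174156135-174156179 at Gnas. The regions at Pou4f2, chr8:87396203-87396247, chr18:86881037-86881081, chr7:13863737-13863781 and chr2:174153010-174153054 lost it under loess. The regions at Cyp4f39, Gadd45a and chr14:47007694-47007740 of Bmp4 lost it under normexp, and so did Ptch1, which lost it under quantile normalization and a common spread as well. Hoxd11 lost it under all 4 scales.

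The count also moved with each array, since a rule over 3 arrays asks for less: it was 12460 without the Sham male array, 6382 without the Sham female, 2782 without the TiO2-H male and 7250 without the TiO2-H female array.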

How the data were processed

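The 4 arrays were read by the authors with Agilent Feature Extraction 10.7.3.1, per the file headers. The processed signal of each dye, as deposited, is a linear intensity after background subtraction, spatial detrending and 1 scaling factor per dye. The log ratio deposited with it is log10 of processed Cy5 to Cy3 and equals the series table to rounding, and its deposited p-value is the scanner software's for a single spot. Dim signals had been replaced by small positive values. Here log2 ratios of the processed signals were centred on the autosomal median of each array (Python 3.11.15, pandas 2.3.3). How often the rule calls a region without a difference in methylation was not tested on these arrays. There was 1 pool per group, so no test was made, and the number of arrays limits the precision. Loess, quantile and normexp (offset 50, on median spot signals in place of mean signals) used limma 3.58.1 in R 4.3.3. Other alternatives left out each array or changed the filter, the gap or the scaling.

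Members and lists were chosen with earlier results of these data known. Named were the 10 runs with the most members (3 or more, ties by median difference), the 10 members with the largest gap and Cy5 well above background on all 4 arrays (1 per run), up to 4 members per gene list and the regions next to the threshold. Some members that the rule names are not reported here. Zic2, Olig2, Isl2, Irx2, Pax2, Nkx2-1, Fzd5 and Drd4 were named in addition, after their values were seen. Symbols came from the study's probe lists, kept for 5328 of 5739 listed probes whose position and RefSeq chromosome matched. A symbol of 1 region was used for its whole run. Of the members, 570 (31.5%) lay in a run with a symbol. No gene annotation on mm9 was used here, so exon or intron is not given.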

Additional observations from a re-analysis of the deposited data

How the results depend on the processing

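Each count and share of members was recomputed under 16 alternatives, and the values of 47 named regions and runs under 12. The deposited log ratio without values set to 0 gave 1807 members and the filter on the scanner p-value 1797, with 88.9% dim under both and 24.4% and 24.5% with another member within 1000 bp.

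Without centring the count was 3081, with 82.1% dim and 31.6% near another member. A common spread gave 72.3% dim and 29.1% near another member, and quantile normalization 82.1% and 27.9%, with counts of 2217 and 1948. Loess gave 597 members, 72.2% and 15.2%. Normexp gave 5.38% and 21.4%. Raising dim Cy5 to the lowest well-above-background signal before centring gave 2617 members, 54.3% dim and 29.8%. Cy5 well above background on all 4 arrays gave 200 members, 0% dim by its construction and 14%. No filter on Cy5 gave 2491 members and 92.0% dim. A 2-fold gap gave 753, 91.4% and 17.4%, and any gap above 0 gave 7259, 81.0% and 47.1%. Leaving out 1 array gave 2782 to 12460 members, 59.3% to 94.7% dim and 26.8% to 67.0% near another member. A rule over fewer arrays or a smaller gap passes more regions by construction. For the other settings the cause was not tested.

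Of 534 values of named regions, 404 moved by less than the SD between arrays of the same exposure, 124 by more and 6 changed sign. Loess moved 41 of the 47 by more and normexp 37. With dim Cy5 raised, TiO2-H minus Sham became 0.12 at Hoxa11, 0.43 at Hoxd11, 0.10 at Fgf3 and 0.12 at Shank1. With normexp it became 0.14 at Fgf3 and 0.086 at Kcna1. No paired analysis was possible because no test was made and the groups share fewer than 2 replicate numbers, each holding replicate 1 alone. The values within each slide stand beside the gaps. Dim Cy5 in the TiO2-H pools limits what can be read, since 88.9% of the members have a bound on at least 1 of those arrays.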

Other observations

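X-linked regions lay outside the rule. Of 1138 that passed the same filters on brightness, 13 (1.14%) had both TiO2-H values below both Sham values by the same gap, 10 of them with dim Cy5 on at least 1 TiO2-H array, and 4 (0.351%) had them above. The input of the TiO2-H arrays went against their sex labels, and the X-linked values were not compared further.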
